A study of Mus musculus with 14 samples.

Results

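The proneural basic helix-loop-helix (bHLH) genes are described here in the chromatin of 81K1 mouse embryonic stem cells with and without a Smarcb1 knockdown (kd). They are 9 of the 21938 protein-coding genes on the chromosomes used, chosen by name: Neurog1, Neurog2, Neurog3, Neurod1, Neurod2, Atoh1, Olig1, Olig2 and Olig3. Called regions of 5 antibodies were counted in the gene region of each, which here means the gene itself plus the 1 kb before its transcription start site (TSS), and in a window that adds 20 kb on each side. All 9 genes were found in the annotation and each had called regions in its window. They are short genes with 1 or 2 exons, located in GRCm38 at chr13:56250478-56252163 (Neurog1, minus strand), chr3:127633135-127635631 (Neurog2, plus), chr10:62133090-62134763 (Neurog3, plus), chr2:79452521-79456751 (Neurod1, minus), chr11:98325415-98329648 (Neurod2, minus), chr6:64729125-64731245 (Atoh1, plus), chr16:91269772-91271933 (Olig1, plus), chr16:91225457-91228677 (Olig2, plus) and chr10:19356533-19358604 (Olig3, plus).

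Proneural bHLH factors bind DNA as dimers with E proteins at short sequences called E-boxes and switch on the programme that turns a dividing progenitor into a neuron or a glial cell. Id proteins take the E proteins away from them, and Hes and Hey repressors, the targets of Notch signalling, keep their genes off in neighbouring cells. In embryonic stem cells, which do not need these genes, many developmental regulators carry H3K27me3, the repressive mark set by Ezh2 in the Polycomb complex PRC2, together with H3K4me3, a mark of active and poised promoters, a state known as bivalent. Smarca4 is the ATPase and Smarcb1 a core subunit of the esBAF chromatin remodelling complex, and H3K27ac marks active promoters and enhancers.

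81K1 is a line made from 1 clone (K1) of the OG2 mouse embryonic stem cell line, with an shRNA against Smarcb1 in the Rosa26 locus under a doxycycline-dependent promoter. The control was 81K1 without doxycycline, so that it carries the same cassette, and the kd was 81K1 with 1 µg/ml doxycycline for 72 h. Doxycycline was given to the kd cells alone, and its own effect and that of the kd cannot be told apart in these lists. The series has 14 samples, of which 4 are inputs, with 1 library for each antibody and condition.

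There is therefore no replicate check, and no test between conditions was made. By the methods, Smarca4 and H3K27me3 were processed by Active Motif and the other antibodies in the authors' laboratory, so that antibody and laboratory cannot be told apart. The lists held between 5364 regions (Ezh2 in kd) and 79014 regions (Smarca4 in control). Defining genes of the labelled cell type were in an active state, since all 8 embryonic stem cell marker genes (among them Pou5f1, Nanog and Sox2) had H3K27ac and H3K4me3 in both conditions. The neural progenitor markers Pax6, Sox1 and Nes had Ezh2 and H3K27me3 in both conditions and no H3K27ac in the control, whereas Sox1 had an H3K27ac island in the kd list. Of 4 fibroblast markers, H3K27ac was called at 0 in the control list and at 1 in the kd list (Col1a1), and their part in the results below was not tested.

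In control cells the proneural genes were covered by Smarca4, H3K27me3 and, at nearly every gene, Ezh2 and H3K4me3, and none had H3K27ac. A Smarca4 peak lay in 9 of 9 gene regions in control and in kd, against 70.3% and 71.7% of all protein-coding gene regions. An Ezh2 peak lay in 7 of 9 gene regions in control, against 12.6% of all, and in 8 of 9 in kd, against 15.4%. The Ezh2 share of the members was thus far from the background in both lists.

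H3K27me3 islands lay in 9 of 9 gene regions in both lists, against 42.4% in control and 35.6% in kd. H3K4me3 was called in 8 of 9 in control and in 9 of 9 in kd, against 63.4% and 68.1%. H3K27ac was called in 0 of 9 in both lists, while 32.4% of all protein-coding gene regions had it in control and 48.2% in kd. Its absence was not shared by all genes with both other marks: among the 6350 protein-coding gene regions with H3K27me3 and H3K4me3 in control, 34.1% had H3K27ac in control and 55.1% in kd. Smarca4, Ezh2, H3K27me3 and H3K4me3 without H3K27ac were found together at 7 of 9 members in control, against 6.21% of all protein-coding genes, and at 8 of 9 in kd, against 8.19%. The exceptions were Neurog3 in control and Neurod1 in both conditions.

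**Figure D1:**
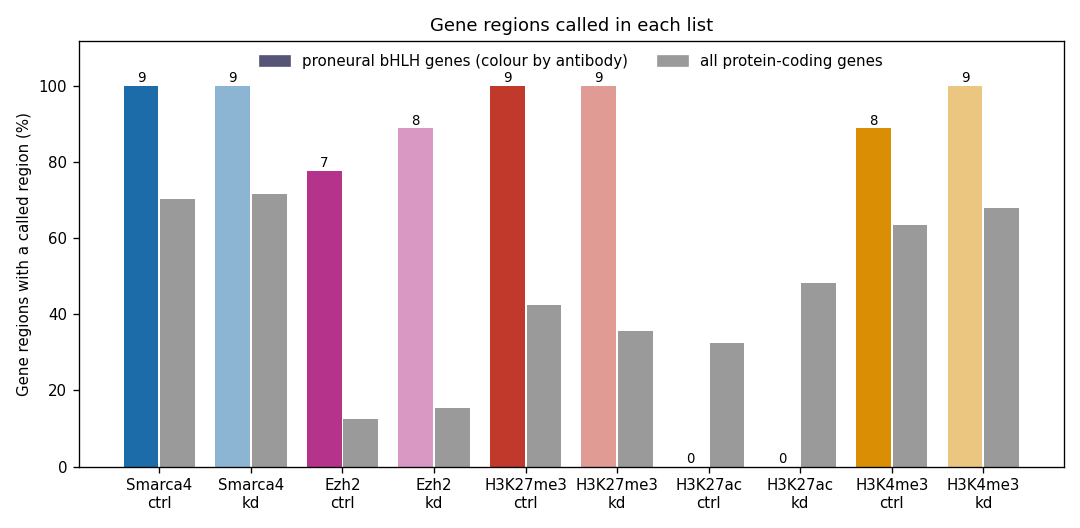
Share of gene regions (in %) with a called region in each of the 10 lists, as coloured bars for the 9 proneural genes with the number of genes above each bar, and as grey bars for all 21938 protein-coding genes. The members stand above the grey bars in every list but those of H3K27ac, where 0 of 9 were called and the grey bars reach 32.4% in control and 48.2% in kd.

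The promoters of these genes were rich in CpG dinucleotides, the sequence context in which PRC2 and H3K4me3 are usually found. The RefSeq promoter table (GRCm38.p6) held 8 of the 9 members, and the 250 bases before their start were read. Olig1 had no entry. The members had a median of 16 CpG against 6 in all 32841 promoters of the table, and a median GC content of 62.4% against 52.4%. Their median ratio of observed to expected CpG was 0.72, against 0.37 in all.

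The range was wide, from 29 CpG at Neurog1 and 22 at both Neurod1 and Olig2, over 18 at Neurog3, 14 at Atoh1, 11 at Neurod2 and 8 at Neurog2, to 4 at Olig3. Olig3 was thus below the median of all promoters, and the other 7 were above it. An E-box of any kind (CANNTG, which reads the same on both strands and includes the 3 following ones) was found in 4 of the 8, against 66.2% of all promoters. CAGCTG was found in 1, against 13% of all, CAGATG or its reverse complement in 1, against 14.4%, and CATATG in 2, Neurod1 and Neurod2, against 3.47%. The promoters of 4 genes are printed, each for a different state: Neurog3 had Ezh2 and H3K4me3 in the kd lists only, Neurod1 lacked Ezh2 in its gene region in both, Neurod2 had the strongest Ezh2 peak, and Olig3 had the fewest CpG and lost most of its Smarca4 score. Every CpG is in capitals.
Neurog3 promoter, chr10:62132840-62133089, plus strand: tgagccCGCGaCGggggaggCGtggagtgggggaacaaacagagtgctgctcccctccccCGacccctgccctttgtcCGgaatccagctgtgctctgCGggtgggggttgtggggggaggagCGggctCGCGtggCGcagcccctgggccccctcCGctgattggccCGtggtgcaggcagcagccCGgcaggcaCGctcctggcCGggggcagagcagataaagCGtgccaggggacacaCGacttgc
Neurod1 promoter, chr2:79456637-79456886, minus strand: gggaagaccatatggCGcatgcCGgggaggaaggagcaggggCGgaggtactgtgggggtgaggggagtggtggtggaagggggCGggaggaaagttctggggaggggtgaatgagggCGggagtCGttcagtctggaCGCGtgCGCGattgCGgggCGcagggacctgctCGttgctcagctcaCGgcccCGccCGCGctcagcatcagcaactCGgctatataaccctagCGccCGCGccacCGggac
Neurod2 promoter, chr11:98329646-98329895, minus strand: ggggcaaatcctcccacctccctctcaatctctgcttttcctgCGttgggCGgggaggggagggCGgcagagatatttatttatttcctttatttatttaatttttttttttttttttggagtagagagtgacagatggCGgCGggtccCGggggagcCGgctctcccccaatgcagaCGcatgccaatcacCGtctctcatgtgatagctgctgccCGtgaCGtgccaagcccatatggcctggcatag
Olig3 promoter, chr10:19356289-19356538, plus strand: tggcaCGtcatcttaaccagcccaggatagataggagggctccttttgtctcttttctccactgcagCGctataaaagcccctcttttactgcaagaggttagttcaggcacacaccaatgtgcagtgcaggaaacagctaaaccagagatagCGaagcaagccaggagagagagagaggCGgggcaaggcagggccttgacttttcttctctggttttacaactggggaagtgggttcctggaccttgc

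**Figure D2:**
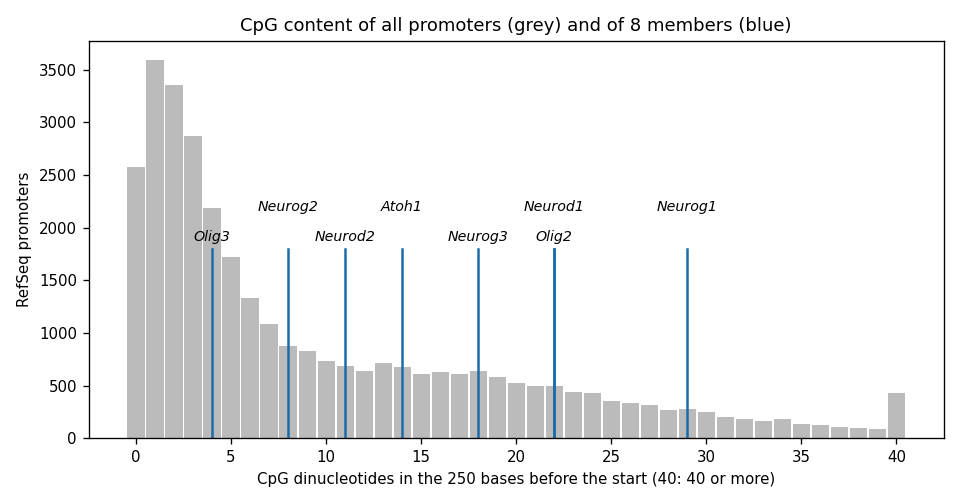
Number of CpG dinucleotides in the 250 bases before the start (x axis) against the number of RefSeq promoters (y axis), with all 32841 promoters as grey bars, those with 40 or more in the last bar, and the 8 members with an entry as blue lines whose height has no meaning. The members run from 4 CpG at Olig3 to 29 at Neurog1, against a median of 6 in all.

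Smarca4 was present at every proneural gene in both conditions, and its strongest peak had a lower score in the kd list at 8 of the 9. The MACS2 score deposited by the authors grows with the significance of a peak and was not scaled between libraries. The strongest Smarca4 peak touching the gene region was lower in kd at 48.3% of the 14886 protein-coding genes with a peak in both. By its place in its own list (the percentage of peaks with a lower score, here called percentile) the members again gave 8 of 9, against 53.0%. Over the members the median score was 234 in control and 126 in kd, and the median of the 9 ratios of kd to control was 0.599, against 1.02 over all genes. Among genes with H3K27me3 and H3K4me3 in control the score was lower in kd at 57.2% and the median ratio was 0.902, and 7 of the 8 members among them had a lower score. The percentile was lower in kd at 62.5% of these genes and at 7 of the 8 members.

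Among the neurogenins, which commit progenitors to a neuronal fate, Neurog3 had the highest score in control. Neurog1, which acts in cranial sensory ganglia, had 234 in control and 126 in kd. Neurog2, which acts in cortical and spinal progenitors, had 129 in control and 101 in kd. The kd peak with 101 lay upstream of the TSS and overlapped no control peak, and the control peak overlapped kd peaks with 92 and 84. Smarca4 covered 40.5% of the Neurog2 gene region in control and 47.7% in kd. Neurog3, which makes the endocrine cells of the pancreas and gut, had 399 in control and 150 in kd, and its percentile was 98.2 in control and 81.0 in kd. Neurog3 lies inside Fam241b, a gene on the other strand. Its Smarca4 cover was split into many peaks, with 14 in its window in control and 6 in kd. Smarca4 covered 63.7% of the bases within 5 kb of its TSS in control and 31.9% in kd, and 0.287% of all protein-coding genes had a fall at least as large. The median over all protein-coding genes was 7.72% in control, so that most of them had too little cover to fall this far. The kd peak over the TSS was still 1.48 kb wide, against 1.99 kb in control.

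The Neurod genes act later and drive neuronal differentiation. Neurod1, which also acts in pancreatic islets, had 278 in control and 210 in kd. Neurod2, active in young cortical neurons, had 228 in control and 165 in kd. At both genes the strongest peak of the gene region lay inside the gene and not on the TSS, between 1.66 and 2.89 kb downstream at Neurod1 and between 0.986 and 3.07 kb downstream at Neurod2 in control. Both are 2-exon genes. A further strong peak at Neurod1, between 2.94 and 1.94 kb upstream, had 290 in control and 101 in kd. Neurod1 lies wholly inside Cerkl, a gene on the same strand that starts 34 bp before it, so that a region in the Neurod1 gene or at its TSS cannot be given to either gene alone.

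Atoh1, the factor of cerebellar granule neurons and hair cells, was the exception, with 148 in control and 162 in kd. Its percentile was 82.6 in control and 83.0 in kd, a difference of less than 1 point. The single peak of 1.48 kb over the gene in control corresponded to several peaks in kd, and its gene region held 2 peaks in control and 5 in kd. The length they covered was alike, 51.7% of the gene region in control and 53.6% in kd.

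The Olig genes held the lowest kd scores. Olig1, which acts in the maturation of oligodendrocytes, had 360 in control and 82 in kd. Olig2, which makes motor neurons and oligodendrocytes, had 132 in control and 79 in kd. Olig3, which acts in dorsal progenitors of the hindbrain and spinal cord, had 280 in control and 56 in kd. Olig3 therefore stood among the higher scores in control and held the lowest in kd, with a percentile of 94.8 in control and 43.4 in kd.

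Olig3 also kept the smallest part of its covered length. Its window held 7 Smarca4 peaks and 4.46 kb in control, and 2 peaks and 0.694 kb in kd. Of the 1.64 kb peak that spanned its TSS in control, a 212 bp peak between 607 and 818 bp downstream remained in the kd list. Smarca4 covered 27.6% of the bases within 5 kb of the TSS in control and 2.12% in kd, a fall that 0.757% of protein-coding genes reached. Here too, most genes had too little cover in control to fall this far (median 7.72%). The Smarca4 peak between 17.8 and 17.0 kb upstream of Olig3 in control was in both lists, with a score of 71 in control and 83 in kd.

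Over all 9 windows Smarca4 covered 42.3 kb in control, in 65 peaks, and 30.3 kb in kd, in 54 peaks. The log2 ratio of kd to control was -0.48 in the windows and -0.28 over the whole lists. Of the control peaks 30 had no overlapping kd peak, against 43.9% of the whole list, and 14 of the 54 kd peaks had no overlapping control peak, against 35.6% of the list. The share found in control alone was therefore near that of the list, and the share found in kd alone was below it. Covered length was lower in kd in 8 of 9 windows, against 60.3% of protein-coding genes, and the exception was Olig1, with 3.79 kb in control and 3.95 kb in kd. There a region between 15.9 and 13.9 kb upstream was 2.06 kb wide in kd with a score of 215, and consisted of 2 peaks with scores of 133 and 71 in control. A peak between 21.4 and 20.9 kb upstream of Olig1 had a score of 193 in kd, and the control peak it overlapped, which reached the Olig2 window only, had 44. The Olig1 window thus held a lower promoter score and higher distal scores in kd, but these distal peaks were repeat-masked over 96.1% and 100% of their bases in kd.

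**Figure D3:**
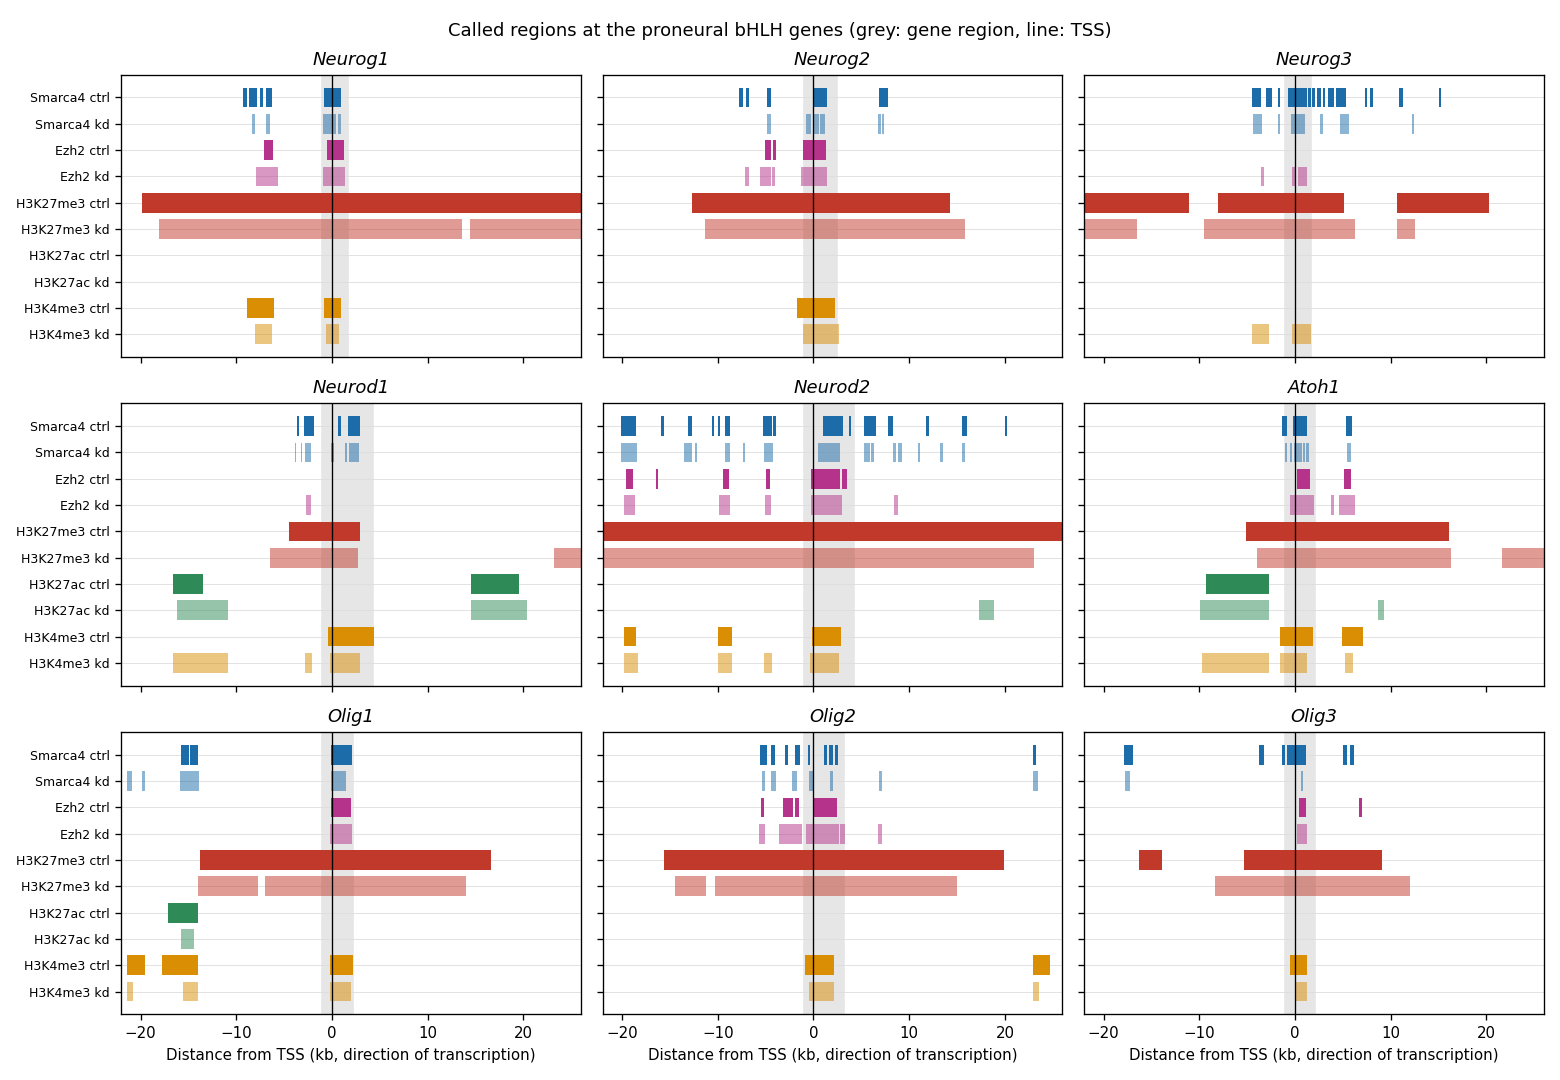
Called regions of the 5 antibodies in control (full colour) and kd (pale) at each of the 9 genes, by distance from the TSS in kb along the direction of transcription, with the gene region in grey and regions cut at the edges of the plot. The 14 Smarca4 peaks around Neurog3 in control against 6 in kd, the single Smarca4 peak near the Olig3 TSS in kd, and the lack of H3K27ac in all gene regions can be seen.

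Ezh2 was called at the same genes in kd as in control, with a higher score at each, and in addition at Neurog3. Of the neurogenins, the strongest Ezh2 peak of the gene region had a score of 193 in control and 756 in kd at Neurog1, and of 278 and 425 at Neurog2. Neurog3 had no Ezh2 peak anywhere in its window in control, and in kd had 2 in the gene region, with scores of 154 and 134, and 1 between 3.53 and 3.18 kb upstream with a score of 44. Neurog3 is the gene with the highest Smarca4 score in control. An Ezh2 peak in kd only was found at 5.96% of all protein-coding gene regions.

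Neurod2 had the strongest Ezh2 peak of the members in both lists, with 879 in control and 1089 in kd, percentiles of 99.8 and 99.1. It ran over 3.04 kb in control and 3.22 kb in kd, starting 262 bp upstream of the TSS in control and 289 bp upstream in kd and running into the gene. Neurod1 had no Ezh2 peak in its window in control. In kd it had 1, between 2.71 and 2.15 kb upstream, with a score of 105, on the upstream Smarca4 peak and outside the Neurod1 gene region. Neurod1 and Neurod2 thus stood at opposite ends for Ezh2 although both had H3K27me3 over the TSS.

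Atoh1 had 174 in control and 349 in kd. Olig1 had 226 and 333, Olig2 had 508 and 904, and Olig3, the weakest of the 7, had 83 and 288. The score was higher in kd at 7 of 7 members called in both, but this was so at 92.3% of the 2065 protein-coding genes called in both. By percentile, 2 of 7 were higher in kd (Neurog1 and Olig3), against 63.1%. The median ratio of kd to control was 1.78 in the members and 2.57 over all genes. By the median ratio, the rise in score of the members was therefore no larger than that over all genes with Ezh2 in both. Their median score was higher in both lists, with 226 against 106 in control and 425 against 311 in kd.

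**Figure D4:**
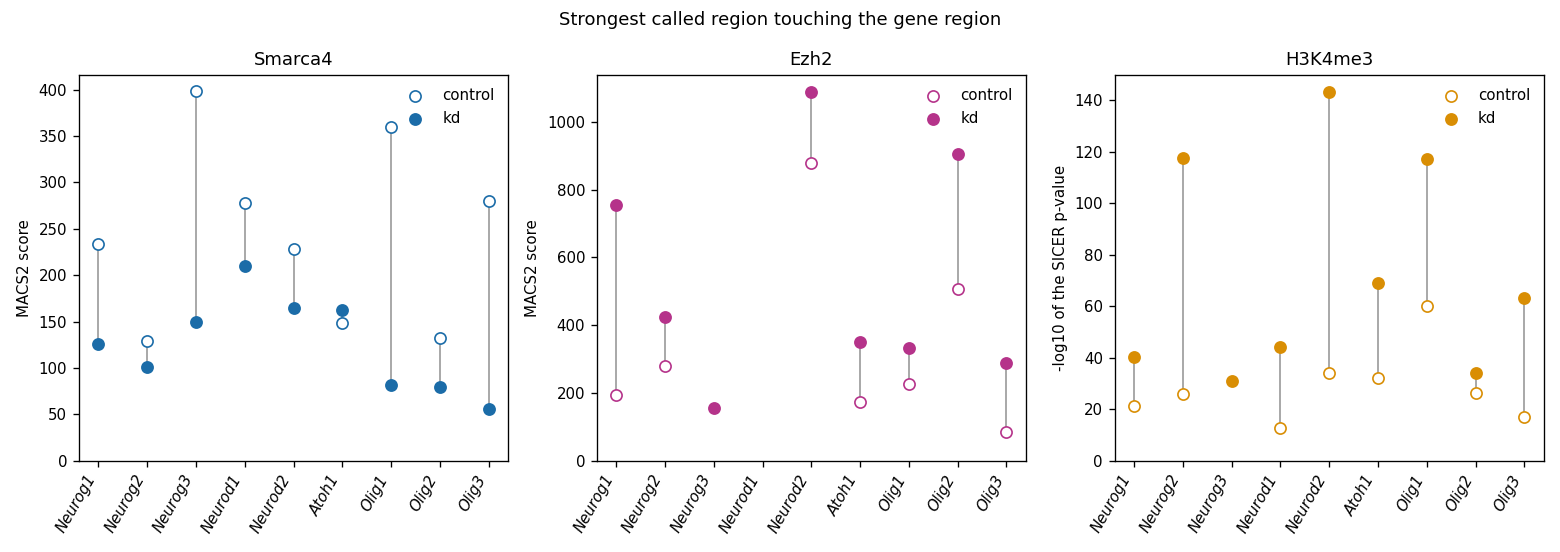
Strongest called region touching each gene region in control (open circles) and kd (filled circles), as MACS2 score for Smarca4 and Ezh2 and as -log10 of the SICER p-value for H3K4me3, each on a linear axis from 0, with no point where nothing was called. Smarca4 is lower in kd at all genes but Atoh1 (148 to 162), and Ezh2 and H3K4me3 are higher at every gene called in both, most at Neurog1 for Ezh2 (193 to 756).

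All 21 Ezh2 peaks of the control windows and all 25 of the kd windows lay in an H3K27me3 island, against 63.1% and 94.3% of the whole lists. A Smarca4 peak was touched by 17 of 21 in control and 21 of 25 in kd, against 44.5% and 86.6%, and an H3K4me3 island by 12 of 21 and 16 of 25, against 37.4% and 83.4%. The windows held more shared Ezh2 and Smarca4 sites than the list did in control and about as many in kd. Ezh2 covered 21.1 kb of the windows in control and 32.9 kb in kd (log2 ratio 0.64, and 0.55 over the whole lists), and 3 of 21 control peaks and 9 of 25 kd peaks were without an overlap in the other condition, against 51.2% and 49.4% of the lists. A larger share of the Ezh2 sites of these genes than of the list was thus found in both conditions. The 9 kd peaks without an overlap included 3 at Neurog3 and 1 at Neurod1.

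H3K27me3 formed a domain over the TSS of every member in both conditions. It covered the gene region over its whole length at 8 of 9 in both, against 6.84% of protein-coding genes in control and 4.79% in kd. Neurod1 was the exception, with 75.5% of its gene region covered in control and 71.7% in kd. The domains differed widely in width. The widest were at Neurog1, with 75 kb in control and 31.6 kb in kd, and at Neurod2, with 58.8 kb and 49 kb. The narrowest were at Neurod1, with 7.4 kb and 9.2 kb, and at Neurog3, with 13.2 kb and 15.8 kb.

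Between them lay Olig2 with 35.6 kb in control and 25.2 kb in kd, Olig1 with 30.4 kb and 21 kb, Neurog2 with 27 kb and 27.2 kb, Atoh1 with 21.2 kb and 20.2 kb, and Olig3 with 14.4 kb and 20.4 kb. The island over the TSS was thus narrower in kd at 5 of 9 genes and wider at 4. At Neurog1 the control island was called as 2 in kd, with a gap between 13.6 and 14.4 kb downstream of the TSS, and H3K27me3 still covered 38.9 kb of its window in kd against 41.5 kb in control. The islands of Olig1 and Olig2 were likewise split on their upstream side in kd.

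Over all windows H3K27me3 covered 257.9 kb in control and 239.2 kb in kd, 65.6% and 60.9% of their length. The log2 ratio was -0.11 in the windows and -0.43 over the whole lists, and it turned to 0.0628 with 10 kb in place of 20 kb on each side. The length was lower in kd in 6 of 9 windows, against 70.9% of protein-coding genes with an island in both, and higher at Neurog2, Neurod1 and Olig3. Of the 12 control islands 1 had no overlap in kd, against 44.1% of the list, and of the 16 kd islands 1 had none in control, against 28.9%. The largest difference was at Neurog3, with 32.7 kb in control and 22.1 kb in kd, on both sides of the TSS island. The island over the TSS had a p-value listed as 0 at all 9 genes in control and at 7 in kd, so that their order within the list cannot be read. In kd the -log10 p was 152.6 at Neurod1 and 305.9 at Olig1.

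**Figure D5:**
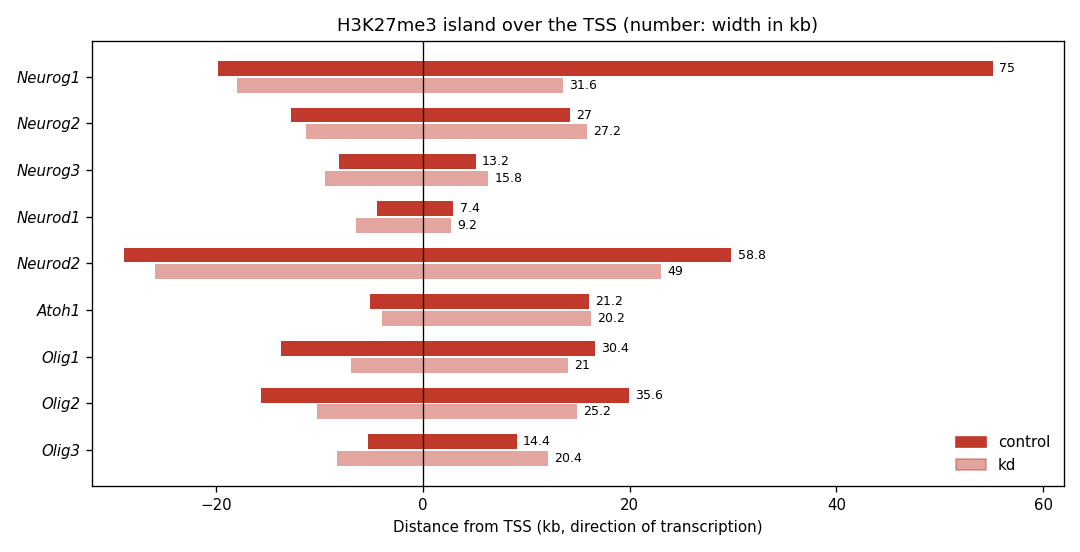
Extent of the H3K27me3 island over the TSS of each gene in control (dark) and kd (pale), by distance from the TSS in kb along the direction of transcription, with the width in kb at the end of each bar. Widths run from 7.4 kb at Neurod1 to 75 kb at Neurog1 in control and from 9.2 kb to 49 kb in kd, and the Neurog1 island is shortened on its downstream side where the kd list has a gap.

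H3K4me3 stood on or beside the TSS within these domains and was stronger in the kd list at every member. Among the neurogenins the -log10 p of the island in the gene region was 21.4 in control and 40.2 in kd at Neurog1, and 26.1 and 117 at Neurog2. Neurog3 had no H3K4me3 island in its window in control and 2 in kd, 1 of 2 kb over the gene with 30.9 and 1 of 1.8 kb between 4.49 and 2.69 kb upstream. An island in kd only was found at 5.49% of protein-coding gene regions. The upstream Neurog3 island touched the Ezh2 peak that also appeared in the kd list alone.

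Neurod1 had the weakest control island of the members, with 12.9 in control and 44.1 in kd, and Neurod2 had 33.9 and 143. Atoh1 had 32.0 and 69.0. Olig1 had 60.2 and 117, Olig2 had 26.1 and 34.0, and Olig3 had 17.0 and 63.2. In control the members thus held low places in the list, with a median percentile of 31.3 against 72.9 over all genes with H3K4me3 in both. In kd the median percentile of the members was 51.4, against 77.7.

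The -log10 p was higher in kd at 8 of 8 members called in both, against 69.9% of all such genes and 84.6% of those with H3K27me3 and H3K4me3 in control. The percentile was higher at 8 of 8, against 62.7% and 81.0%. Where neither p was listed as 0, the median ratio of kd to control -log10 p was 2.72 in the members, 1.63 over all genes and 2.07 over those with H3K27me3 and H3K4me3. The direction at the members was therefore that of most genes with both marks. The islands were not wider: that of Neurod1 measured 4.8 kb in control and 3.2 kb in kd, that of Olig3 1.8 kb and 1.2 kb, and that of Neurod2 3 kb in both.

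Over the windows H3K4me3 covered 37.3 kb in 14 islands in control and 45.9 kb in 20 islands in kd. The log2 ratio was 0.30, and 0.41 over the whole lists. All 14 control islands had an overlap in kd, whereas 8.15% of the list had none, and 6 of the 20 kd islands had none in control, against 29.8% of the list. These 6 were 2 at Neurog3, 2 at Neurod1, 1 at Neurod2 and 1 at Atoh1. The widest of them, between 16.6 and 10.8 kb upstream of Neurod1 and between 9.72 and 2.73 kb upstream of Atoh1, were repeat-masked over 99.0% and 96.1% of their bases and lay on H3K27ac islands. Without repeat-masked regions the log2 ratio of covered length turned to -0.0368. Covered length was nevertheless lower in kd in 5 of 8 windows with H3K4me3 in both, against 45.5% of protein-coding genes. Covered length was higher in kd at Neurod1, Neurod2, Atoh1 and Neurog3.

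H3K27ac was found in the windows of 3 members in control and 4 in kd, against 60.7% and 76.6% of protein-coding genes, and never on a gene region. The nearest was at Atoh1, between 9.32 and 2.73 kb upstream in control and between 9.92 and 2.73 kb upstream in kd. Neurod1 had an island between 16.6 and 13.5 kb upstream and 1 between 14.5 and 19.5 kb downstream in control, and both were in the kd list. Olig1 had 1 that ended 13972 bp upstream in control, and Neurod2 had 1 in kd alone. All 4 control and all 6 kd islands consisted of repeat-masked bases for at least 50% of their length, and none touched an Ezh2 peak. Without repeat-masked regions the windows held no H3K27ac at all.

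Away from the gene regions, the Smarca4 peaks of the proneural windows carried Ezh2 and H3K27me3 in a larger share than the distal Smarca4 peaks of the whole list. In control 36 Smarca4 peaks of the windows were outside every protein-coding gene region. Of these 8 touched an Ezh2 peak, against 1.62% of the 27332 distal Smarca4 peaks of the list, and 32 an H3K27me3 island, against 31.3%. In kd 10 of 30 touched Ezh2, against 2.89%, and 27 of 30 touched H3K27me3, against 17.3%. Ezh2 and H3K4me3 were both present on 3 of 36 in control, against 0.911%, and on 5 of 30 in kd, against 2.10%. Windows were placed around genes that carry these marks, and neighbouring peaks of a window are not independent of each other.

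Smarca4 and Ezh2 shared 7 such sites in both conditions, in the windows of 5 genes. A further shared site, at the TSS of Ppp1r1b upstream of Neurod2, lies in that gene's own region and was left out. The 7 sites were 6.71 kb upstream of Neurog1, 4.66 kb upstream of Neurog2, 4.79 and 9.06 kb upstream of Neurod2, 5.66 kb downstream of the Atoh1 TSS, and 5.28 and 1.80 kb upstream of Olig2. All 7 had H3K27me3 and none had H3K27ac in either condition. The Neurog1 site, the Atoh1 site and the farther Neurod2 site also had H3K4me3 in both conditions.

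The central 200 bases of the 7 sites held a median of 17 CpG, from 7 to 23, against a median of 4 in the distal Smarca4 peaks of the list. The 7 sites were chosen for Ezh2 in both conditions, whereas 1.62% of these distal peaks touched Ezh2 in control. The 2 sets are therefore not alike, and the CpG content of distal peaks with Ezh2 was not computed. The Neurog1 site and the farther Neurod2 site had 23 CpG each, a percentile of 99.2 among distal peaks. CANNTG was found in 6 of 7, against 69.3% of distal peaks, CAGCTG in 2, against 14.2%, CAGATG or its reverse complement in 1, against 15.3%, and CATATG in 0, against 2.66%. The sequences of the 3 sites with all 4 signals are printed on the strand of their gene, with every E-box CANNTG in capitals.
Neurog1 distal site, chr13:56258770-56258969, minus strand: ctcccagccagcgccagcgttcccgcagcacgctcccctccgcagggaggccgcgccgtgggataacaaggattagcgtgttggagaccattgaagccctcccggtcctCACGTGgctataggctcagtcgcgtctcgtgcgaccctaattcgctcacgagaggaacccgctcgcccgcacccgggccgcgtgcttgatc
Neurod2 distal site, chr11:98338611-98338810, minus strand: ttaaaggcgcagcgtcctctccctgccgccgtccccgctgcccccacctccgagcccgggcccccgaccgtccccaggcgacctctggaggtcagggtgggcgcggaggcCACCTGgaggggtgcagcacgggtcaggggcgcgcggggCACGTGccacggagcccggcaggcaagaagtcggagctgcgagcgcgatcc
Atoh1 distal site, chr6:64734688-64734887, plus strand: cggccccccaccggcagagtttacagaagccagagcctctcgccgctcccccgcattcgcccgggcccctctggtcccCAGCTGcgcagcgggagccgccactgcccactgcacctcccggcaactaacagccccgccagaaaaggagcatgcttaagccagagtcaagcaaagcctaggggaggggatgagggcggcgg

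The Neurog1 site had a Smarca4 score of 118 in control and 15 in kd, and an Ezh2 score of 132 and 324. The farther Neurod2 site had a Smarca4 score of 262 and 242, and an Ezh2 score of 207 and 458. The Atoh1 site had a Smarca4 score of 102 and 69, and an Ezh2 score of 204 and 399. The Smarca4 score was thus lower and the Ezh2 score higher in the kd lists at all 3, by very different amounts for Smarca4. The Ezh2 percentile was lower in kd at all 3, with 79.8 and 78.8 at the Neurog1 site, 89.9 and 87.2 at the farther Neurod2 site and 89.7 and 83.7 at the Atoh1 site. The score was higher in kd at 92.3% of protein-coding genes with Ezh2 in both. The Ezh2 score at the Atoh1 site was above that of the Atoh1 gene region in both lists (174 and 349).

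Over the 10 lists, the profile within 5 kb of the TSS differed among the members. As a measure of likeness, the absolute differences in the covered share of these bases were summed over the 10 lists, a sum that is 0 for equal profiles. The closest pair was Neurog1 and Olig1, with 0.224, followed by Neurog2 and Neurod2, with 0.475. Atoh1 and Neurog3 were the farthest apart, with 1.902. Members of the same family were therefore not closest to each other.

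Measured against the members' median profile, Olig1 came nearest and Neurod1 was farthest, with sums of 0.335 and 1.12. The median profile had Smarca4 on 27.6% of bases in control and 18.3% in kd, Ezh2 on 17.5% and 22.6%, H3K27me3 on 100% in both, H3K27ac on 0% in both and H3K4me3 on 30.0% and 36.5%. The 5 protein-coding genes most like it were Rax (0.124), Plxnc1 (0.1802), 9030612E09Rik and Sobp, which share these bases (0.181), and Adcy5 (0.194). These are ranks of a description, and all were closer to the median than any single member was.

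The genes around the proneural factors in their pathway were not in 1 state. Of 9 other neural bHLH genes, 5 had Ezh2 in control and 7 in kd, and 0 had H3K27ac in either. The pattern of Smarca4, Ezh2, H3K27me3 and H3K4me3 without H3K27ac was found at 4 of 9 in control and at 7 of 9 in kd. Neurod6 had only H3K27me3 in both lists, and Neurod4 had Smarca4 in both and H3K27me3 in kd, so that these later acting Neurod genes differed from Neurod1 and Neurod2.

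The E proteins, with which proneural factors dimerise, differed from the members in H3K27ac and Ezh2: Tcf3, Tcf4 and Tcf12 had H3K27ac, H3K4me3 and Smarca4 in 3 of 3 in both conditions and Ezh2 in 0 of 3. Tcf12 had H3K27me3 in both, with a -log10 p of 41.7 in control and 29.1 in kd. The 4 Id genes had no Ezh2 in control, and 3 of them had it in kd, all but Id1. Of 8 Hes and Hey repressors, 2 had Ezh2 in control and 6 in kd, and Hes1 was the 1 with H3K27ac in both conditions. Of 10 Notch ligands, receptors and the mediator Rbpj, 2 had Ezh2 in control (Dll1 and Dll4) and 4 in kd. Over all 34 related genes Ezh2 was called at 9 in control and 20 in kd, against 12.6% and 15.4% of protein-coding genes. The full pattern was found at 8 and 18, against 6.21% and 8.19%. Of the 9 members, 7 had Ezh2 in control already. Ezh2 and the full pattern were also found in control at 4 of 4 neural progenitor markers and 4 of 4 mesoderm and endoderm markers. The percentile of the strongest Smarca4 peak was lower in kd at 24 of the 33 related genes called in both. The share was 53.0% of all protein-coding genes called in both, and 62.5% of those with H3K27me3 and H3K4me3 in control. It was lower at 7 of 8 other neural bHLH genes, 4 of 4 Id genes and 6 of 8 Hes and Hey repressors. Among E proteins it was lower at 2 of 3, and among the Notch genes at 5 of 10. Of the mesoderm and endoderm markers 4 of 4 were lower, and of the neural progenitor markers 3 of 4. Of the stem cell markers 4 of 8 were lower, and of the fibroblast markers 1 of 3. A lower Smarca4 percentile in kd was thus not particular to the members, and its share differed between lists.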

How the data were processed

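Chromatin immunoprecipitation followed by sequencing was analysed in 10 lists of called regions, 1 for each of 5 antibodies in control and kd 81K1 cells, grouped by the sample titles. By the methods, the authors aligned reads to mm10 (Bowtie2 and SAMtools 1.9 are named in the submitters' processing notes) and ran MACS2 for Smarca4 and Ezh2 and SICER for the histone marks, separately for each library. The methods name the input as background, whereas the sample labels name IgG, so the background is uncertain. The score used for peaks is the MACS2 score deposited by the authors, and the p-value used for islands is the SICER p-value deposited by the authors, given here as -log10. Neither is scaled between libraries. Read counts are not part of the lists, the depth is unknown, and no interval or limit from counting could be given.

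Lines outside the autosomes, X and Y, at most 61 in any list, were dropped. Regions were placed on GENCODE M21 genes of GRCm38, of which mm10 is the same build, whereas the methods name a later release. An overlap of 1 bp was enough. The gene region was the gene and 1 kb before its TSS. The window added 20 kb on each side, and long regions were cut to it for covered lengths. Most counts of members and of regions in their windows stand beside the share of 21938 protein-coding genes, or of the whole list, with the same call. Most counts of related and marker genes are given without such a share. A percentile is the share of a list with a lower value, with a tie counted as 0.5. Regions were called repeat-masked from 50% lower-case bases of the reference. Sequences were read from RefSeq (GRCm38.p6). Python 3.11.15, pandas 2.3.3, numpy 2.4.6, pysam 0.24.0 and matplotlib 3.10.9 were used, and overlaps were tested on simulated lists and against bedtools 2.31.1.

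With 1 library per antibody and condition no test was made. The members and the gene lists were chosen with earlier results of these data known. Genes named are the 9 members, protein-coding genes overlapping a region of a member window, and the 5 genes with the most similar profile. From the lists of related and marker genes, some are named that differ from most of their list. Others that share its state, such as Pou5f1 and Tcf3, are named as examples. Some genes of these lists are not reported here by name. Alternatives tried were a stricter threshold (a score of 50, or -log10 p of 10 for H3K27ac and 20 for the other marks), lists of equal length, merged regions, other windows and leaving out repeat-masked regions.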

Additional observations from a re-analysis of the deposited data

How the results depend on the processing

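The members with a call, the called regions, those called in 1 condition only and the covered lengths with their ratios were recomputed. All had a stricter threshold, lists of equal length and no repeat-masked regions as alternatives. Other windows were used for all but the lengths, and merged regions for the numbers of called regions only. The counts of members with a lower or higher strongest value were recomputed under alternatives chosen after seeing the data. The combined pattern, the distal sites and the related genes were not recomputed. The number of members with a call stayed within 1.5 times the first value in 48 of 50 recomputations. With 5 kb on both sides of the TSS in place of the gene region, 1 member (Atoh1) had H3K27ac in control and 1 in kd, and 9 in place of 8 had Ezh2 in kd. At the stricter threshold 6 in place of 8 had H3K4me3 in control. The log2 ratio of covered length kept its direction in 22 of 24, and it turned to 0.0628 for H3K27me3 with 10 kb around the gene region and to -0.0368 for H3K4me3 without repeat-masked regions. Without repeat-masked regions the length covered by H3K27ac was 0 kb in control and 0 kb in kd. Smarca4 was lower in kd at between 6 and 8 members in every alternative, and H3K4me3 was higher at between 6 and 8. The number of members with a higher Ezh2 value in kd was 2 in place of 7 when the order within the list replaced the score. Of the numbers of called regions, 52 of 60 stayed within 1.5 times the first value. The largest part of the others came from H3K27ac, and merging Smarca4 peaks less than 1 kb apart gave 34 in place of 65 in control. The numbers of regions called in 1 condition only were the least stable, with 14 of 60 outside that range, among them 7 in place of 14 kd-only Smarca4 peaks at the stricter threshold. The causes of these changes were not tested beyond what each alternative leaves out. No paired analysis was possible because each group has 1 library and the values come from no test, and for the same reason no replicate could be left out.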
